A study of Macaca radiata with 6 samples.

Results

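The ligands of the EGF receptor were followed in the corpus luteum (CL) of the bonnet monkey (Macaca radiata) one day after support by luteinizing hormone (LH) was interrupted. The genes were chosen by name as AREG, EREG, BTC, HBEGF, TGFA and EGF, and every probe set with one of these as its single symbol in the platform annotation was taken. This gave 8 probe sets of 5 genes out of 52707 probe sets tested, with 1 probe set each for AREG and EGF and 2 each for BTC, HBEGF and TGFA. EREG was not analysed here, since no probe set carried its name. AREG was among the brightest probe sets of every array in both groups, and no difference between the groups was detected for any of the 8 probe sets.

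The tested samples were 3 CL of female monkeys given Cetrorelix (CET), an antagonist of the GnRH receptor that withdraws pituitary LH, subcutaneously at 150 μg/kg BW, and they were compared with 3 CL taken after vehicle (VEH), a solution of 5.25% glucose. Both injections were made on day 7 of the luteal phase and both sets of CL were taken 24 h later. Each sample was total RNA from a piece of CL tissue read on 1 Affymetrix array. The array was designed for the rhesus macaque, and its probes therefore met RNA of a related species. The same monkeys are described as having given the CL of both groups, but the labels do not say which CET and VEH samples came from one animal, so no animal term was fitted, and p-values measure only the spread between these samples.

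EGF receptor ligands are made as membrane-anchored precursors that are cut loose at the cell surface by metalloproteases of the ADAM family and then bind EGFR on the same or a neighbouring cell. Ligand binding pairs EGFR with itself or with ERBB2 or ERBB3, and the active pair signals through RAS and the MAP kinases, through PI3 kinase and AKT, and through STAT factors. In the preovulatory follicle the LH surge raises cyclic AMP in granulosa cells, which induces amphiregulin, epiregulin and betacellulin, and these carry the LH signal to the cumulus cells. The comparison of CET with VEH asks whether the signal of the same ligands in the formed CL depends on continued LH support. The study reports that circulating progesterone also fell after CET, and it treats CET as depletion of both hormones. Loss of LH and loss of progesterone cannot be told apart here.

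The authors' values are MAS5 signals, which summarise the brightness of a probe set on a linear scale and were scaled on each array to the same trimmed mean of 500. Here they were put on the log2 scale, quantile-normalized and tested with limma over all 52707 probe sets, the p-values being adjusted by the Benjamini-Hochberg method. A log2 difference is CET minus VEH throughout. Where a gene had more than 1 probe set, the brighter stands for the gene. No detection calls were used, and a probe set below the 40th percentile of mean log2 signal, at 7.43, is called dim. Brightness depends on how well the probes bind as well as on the transcript, so the rank of a probe set does not order transcripts by abundance.

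None of the 8 ligand probe sets passed an adjusted p of 0.05, and none did among all probe sets (0% of 52707, smallest adjusted p 0.83). At an unadjusted p under 0.05, 0 of the 8 ligand probe sets passed, against 5.38% of all probe sets. In 0 of the 8 did the CET arrays lie all above or all below the VEH arrays, against 11.2% of all probe sets. With the 5 genes read at their brighter probe sets, 0 differed by more than 1.5-fold between group means, a difference that 42.6% of 14132 genes reached. The 4 ligand probe sets above the dim limit, 1 each of AREG, BTC, HBEGF and TGFA, had a higher mean after CET in the quantile-normalized values, and that of AREG was lower with the signals as deposited. The median log2 difference was 0.21 over the 5 genes and -0.08 over all genes.

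**Figure D1:**
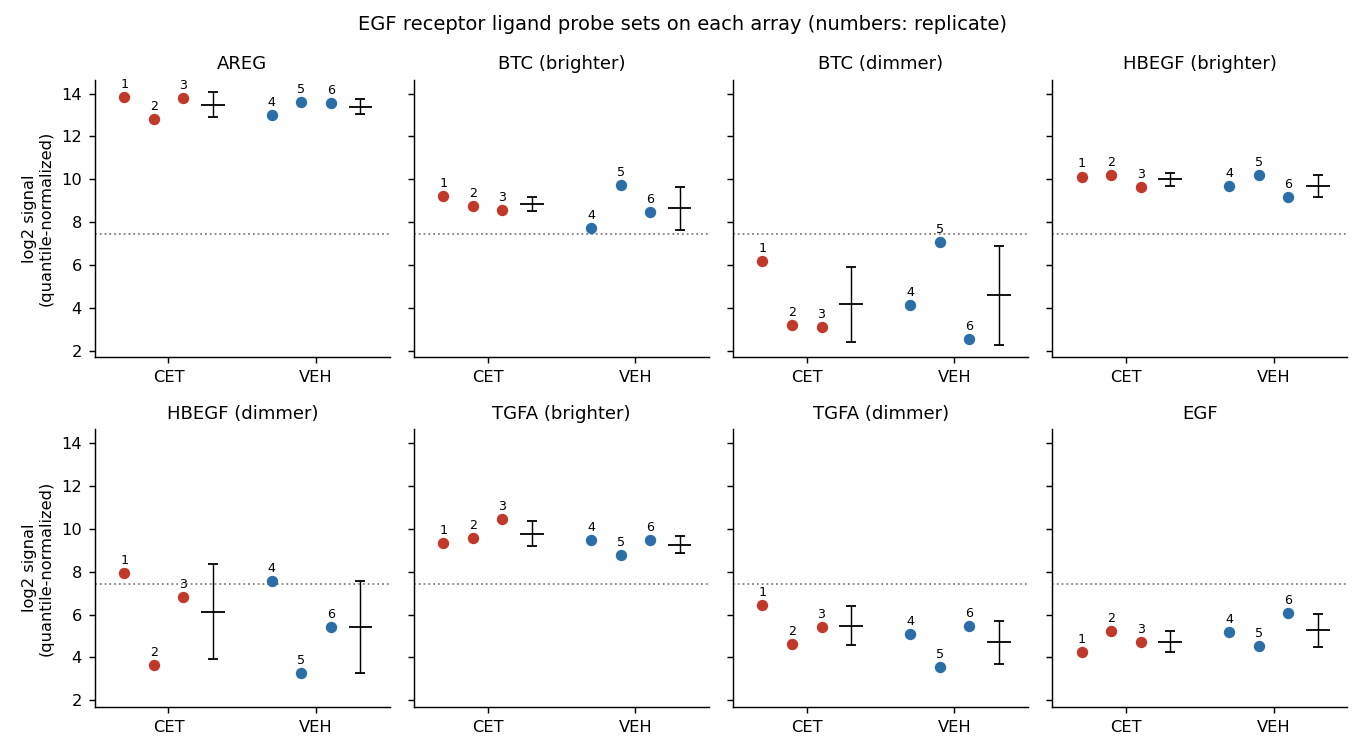
Quantile-normalized log2 signal of each EGF receptor ligand probe set on the 3 CET arrays (red) and the 3 VEH arrays (blue), with the replicate number beside each point. Horizontal lines are group means, error bars are the SD (n = 3), and the dotted line is the dim limit of 7.43. AREG lies between 12.80 and 13.83 on every array, and in all 8 panels the groups overlap.

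Amphiregulin, encoded by AREG, is a ligand of EGFR alone among the receptors of this family and is one of the ligands that LH induces in the ovulatory follicle. The deposited AREG signals were 19314, 5609 and 9123 in CET replicates 1, 2 and 3, against 9456, 13917 and 13164 in VEH replicates 4, 5 and 6. The brightest and the dimmest of the 6 signals were thus both from CET arrays, and the groups overlapped. The probe set lay between the 99.02 and the 99.68 percentile of its array in every sample. Of the 52707 probe sets, 167, 514 and 172 were brighter than AREG in CET replicates 1, 2 and 3, and 420, 217 and 227 in VEH replicates 4, 5 and 6. AREG therefore remained in the top 1% of probe sets by signal 24 h after CET.

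After quantile normalization the log2 signal of AREG was 13.83, 12.80 and 13.80 in CET replicates 1, 2 and 3, against 12.98, 13.60 and 13.56 in VEH replicates 4, 5 and 6. One array of each group, CET replicate 2 and VEH replicate 4, was low, and the other 4 lay within a narrow band. The means were 13.47 ± 0.59 after CET and 13.38 ± 0.35 after VEH (SD, n = 3 each). The log2 difference was 0.09 with a standard error of 0.43 (limma adjusted p = 0.98), and the exact two-sided permutation test gave p = 0.6, where 3 against 3 arrays cannot go below 0.1. The 95% confidence interval ran from -0.85 to 1.04, or from 0.553 to 2.06 on the linear scale of CET over VEH.

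The direction of the AREG difference was not settled. It was -0.27 with the signals as deposited and -0.47 with array medians subtracted, and it ranged from -0.10 without VEH replicate 4 to 0.43 without CET replicate 2, with negative values also without CET replicate 1 or CET replicate 3. These scalings move the median log2 difference of all genes, which was -0.08 after quantile normalization, 0.0042 as deposited and -0.20 with array medians subtracted. Relative to that median, AREG stood at 0.17 after quantile normalization and at -0.27 under both other scalings. The 99th percentile of signal was 8563, 5611 and 5098 in CET replicates 1, 2 and 3, against 8327, 8489 and 7870 in VEH replicates 4, 5 and 6, so the scalings treat the bright end of the arrays differently. In CET replicate 3, AREG lay 0.42 above the VEH mean after quantile normalization and 0.40 below it as deposited.

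**Figure D2:**
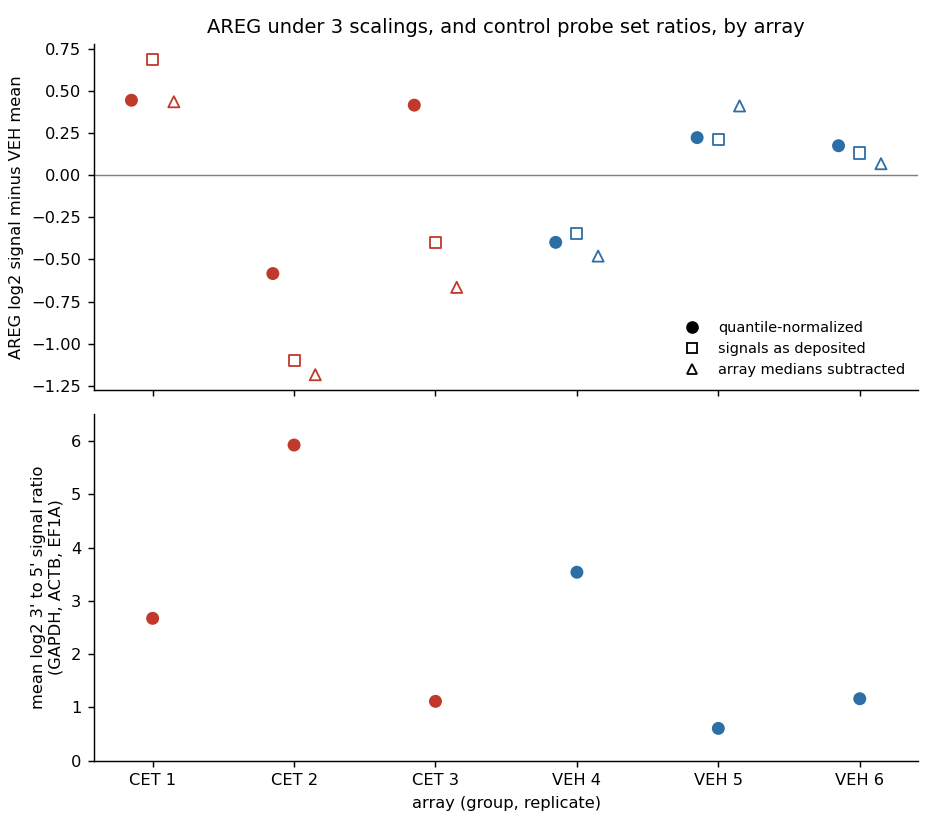
Upper panel, log2 signal of AREG on each array minus the VEH mean under 3 scalings (filled circles, quantile-normalized; open squares, as deposited; open triangles, array medians subtracted). Lower panel, mean log2 ratio of the 3' to the 5' control probe sets of GAPDH, ACTB and EF1A. Red is CET and blue is VEH. CET replicate 2 and VEH replicate 4 have the highest ratios, at 5.92 and 3.54, and AREG is below the VEH mean on both under each scaling, while CET replicate 3 changes sides with the scaling.

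After quantile normalization the lowest arrays for AREG, CET replicate 2 and VEH replicate 4, were also the arrays with the highest 3' to 5' signal ratios of control probe sets, a measure that rises when RNA is shortened. The mean log2 ratio over GAPDH, ACTB and EF1A was 2.67, 5.92 and 1.12 in CET replicates 1, 2 and 3, against 3.54, 0.61 and 1.16 in VEH replicates 4, 5 and 6. As deposited and with array medians subtracted, the lowest arrays for AREG were CET replicates 2 and 3, and CET replicate 3 had one of the low ratios. With the ratio as a covariate the AREG difference was 0.42 (limma unadjusted p = 0.27), and without CET replicate 2 and VEH replicate 4 together it was 0.22 (limma unadjusted p = 0.62). The replicate SD of AREG, pooled over the groups, was 0.481 on the log2 scale, against a median of 0.846 over all probe sets. Among the 528 probe sets at or above the 99th percentile of mean level, 52.3% had an SD at or below that of AREG.

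The genes whose pattern over the 6 arrays was most like that of AREG were CD9, a tetraspanin, with a Pearson r of 0.988, TOM1 at 0.988, DGUOK, a mitochondrial kinase of deoxyguanosine, at 0.987, FGF12, of the fibroblast growth factor family, at 0.987 and POLK, a DNA polymerase, at 0.982. In all of them CET replicate 2 and VEH replicate 4 had the lowest log2 signals, as they had for AREG. Of 10924 genes compared, each at its brightest probe set, 90 had an r of 0.9 or more. Other probe sets above the dim limit had the opposite sign of log2 difference for CD9, DGUOK and FGF12. They were at -1.29 and -0.26 for CD9, -0.23 for DGUOK and -0.97 for FGF12. That of POLK kept its sign, and TOM1 had no other probe set. The correlation is a description over 6 arrays that share their scaling and their RNA quality with AREG.

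STAR, which brings cholesterol to the inner mitochondrial membrane for steroid synthesis, gives another bright luteal gene beside AREG. Its mean log2 signal after VEH was 15.20, against 13.38 for AREG. Its log2 signal was 14.86, 12.74 and 13.66 in CET replicates 1, 2 and 3, against 15.27, 15.44 and 14.89 in VEH replicates 4, 5 and 6, so that the groups did not overlap. The log2 difference of STAR was -1.45 with a standard error of 0.53 (limma adjusted p = 0.83, unadjusted p = 0.019). The difference between the deposited log2 signals of AREG and STAR within an array, which a common factor on that array cannot move, was -1.19, 0.05 and 0.10 in CET replicates 1, 2 and 3, against -2.62, -1.30 and -1.39 in VEH replicates 4, 5 and 6. The CET arrays were thus all above the VEH arrays, by 1.42 on average, or by 1.54 in the quantile-normalized values, although CET replicate 1 and VEH replicate 5 were only slightly apart. Such differences between AREG and TNFAIP6, PTX3, ADAMTS1, CREM or RGS2 also averaged higher after CET. All CET arrays were above the VEH arrays for each of these genes but PTX3. For PTX3 the lowest CET value was 5.66, against a highest VEH value of 5.77. All are given as a description with no test, since these genes and STAR were named with their values known. Each of them had a lower mean after CET at an unadjusted limma p under 0.05, while AREG differed little. A higher average of AREG minus each gene was thus fixed in advance and is no evidence about AREG. The ribosomal protein gene RPL19, the internal control of the study's RT-PCR, had a log2 difference of -0.38 with a standard error of 0.46, which was 0.027 without CET replicate 2.

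Betacellulin, encoded by BTC, binds both EGFR and ERBB4 and is the second of the ligands here that LH induces in the follicle. At the brighter BTC probe set the log2 signal was 9.22, 8.75 and 8.56 in CET replicates 1, 2 and 3, against 7.71, 9.72 and 8.49 in VEH replicates 4, 5 and 6. The VEH arrays held both the lowest and the highest value, and all 3 CET arrays lay between them. The BTC difference was 0.21 with a standard error of 0.61 and a 95% confidence interval from -1.14 to 1.55 (limma adjusted p = 0.96). It was -0.26 without VEH replicate 4 and 0.72 without VEH replicate 5, so its sign rested on VEH replicate 4.

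The dimmer BTC probe set was below the dim limit. Its log2 signal was 6.18, 3.20 and 3.08 in CET replicates 1, 2 and 3, against 4.11, 7.08 and 2.55 in VEH replicates 4, 5 and 6. VEH replicate 5 was the highest array at both BTC probe sets and CET replicate 1 the second highest, while the lowest array differed between them. This probe set had a log2 difference of -0.43 with a standard error of 1.23, opposite in sign to that of the brighter probe set, and the mean over both probe sets was -0.11.

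Heparin-binding EGF-like growth factor, encoded by HBEGF, also binds EGFR and ERBB4 and holds to heparan sulfate at the cell surface. At the brighter HBEGF probe set the log2 signal was 10.13, 10.20 and 9.64 in CET replicates 1, 2 and 3, against 9.69, 10.18 and 9.19 in VEH replicates 4, 5 and 6. The lowest value came from VEH replicate 6, and VEH replicate 5 was as high as the 2 highest CET arrays. HBEGF differed by 0.30 on the log2 scale, with a standard error of 0.46 and a 95% confidence interval from -0.71 to 1.31 (limma adjusted p = 0.92). It kept its sign when any 1 array was left out, from 0.05 without VEH replicate 6 to 0.53 without VEH replicate 5.

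The dimmer HBEGF probe set ranged from a log2 signal of 3.28 to one of 7.94 and had the largest spread of the 8. Its values were 7.94, 3.65 and 6.83 in CET replicates 1, 2 and 3, against 7.55, 3.28 and 5.42 in VEH replicates 4, 5 and 6. Each group held one array above the dim limit and one far below it. Its log2 difference was 0.72 with a standard error of 1.30. Without CET replicate 2 and VEH replicate 4 together, a comparison added after the data were seen, it was 3.03 with an unadjusted limma p of 0.029, the one setting in which a ligand probe set passed that limit, and it then rested on 2 arrays a group.

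Transforming growth factor alpha, encoded by TGFA, is a ligand of EGFR and was the ligand with the largest difference above the dim limit. At the brighter TGFA probe set the log2 signal was 9.33, 9.58 and 10.44 in CET replicates 1, 2 and 3, against 9.50, 8.80 and 9.49 in VEH replicates 4, 5 and 6. CET replicate 3 was the highest of the 6 and VEH replicate 5 the lowest, and the other 4 arrays were close together. TGFA differed by 0.52 on the log2 scale, with a standard error of 0.50 and a 95% confidence interval from -0.57 to 1.61 (limma adjusted p = 0.87, exact two-sided permutation p = 0.4). It was 0.19 without CET replicate 3 and 0.28 without VEH replicate 5, and 0.60 with the signals as deposited, where it passed the 1.5-fold line of 0.58.

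The dimmer TGFA probe set had log2 signals of 6.44, 4.62 and 5.40 in CET replicates 1, 2 and 3, against 5.09, 3.56 and 5.46 in VEH replicates 4, 5 and 6. VEH replicate 5 was the lowest array at both TGFA probe sets, whereas the highest was CET replicate 3 at the brighter and CET replicate 1 at the dimmer. This gave a log2 difference of 0.78 with a standard error of 0.89. Both TGFA probe sets kept a higher mean after CET in every alternative run, and neither passed the test in any of them.

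Epidermal growth factor, encoded by EGF, gave the one ligand gene that was dim. The log2 signal of EGF was 4.23, 5.22 and 4.74 in CET replicates 1, 2 and 3, against 5.18, 4.55 and 6.08 in VEH replicates 4, 5 and 6. All 6 values were below the 20th percentile of their array. EGF differed by -0.54 on the log2 scale, with a standard error of 0.82 and a 95% confidence interval from -2.33 to 1.25 (limma adjusted p = 0.92), and at this brightness a change in EGF was not detectable.

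**Figure D3:**
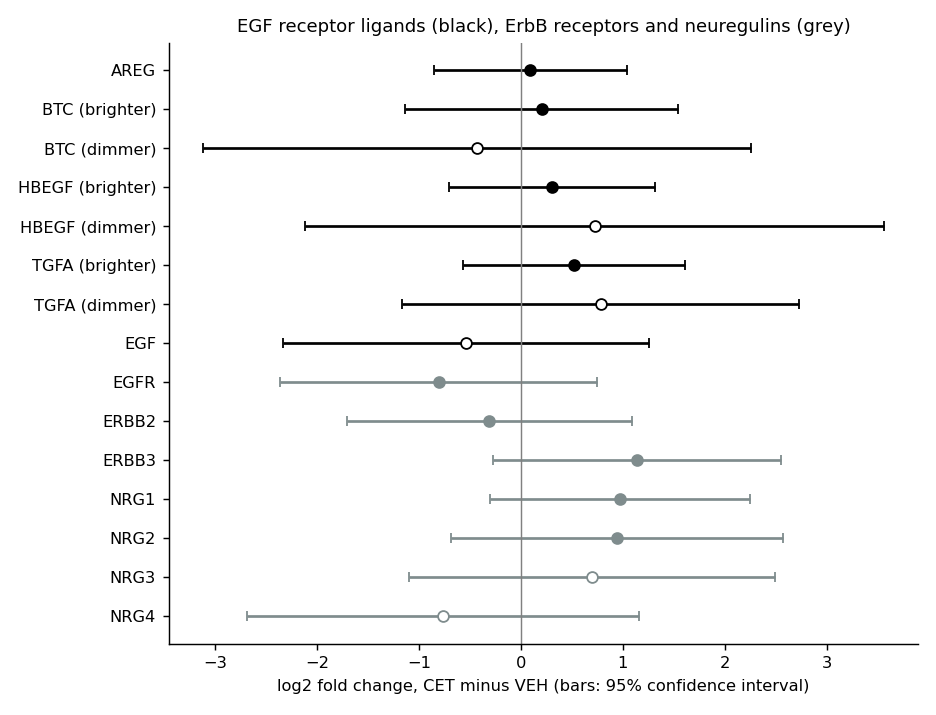
Log2 difference, CET minus VEH, with its 95% confidence interval from limma for the 8 EGF receptor ligand probe sets (black) and for the ErbB receptors and neuregulins at their brightest probe sets (grey). Filled points lie above the dim limit and open points below it. Every interval includes 0, and the AREG interval, from -0.85 to 1.04, is the narrowest of the ligands.

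The receptors that these ligands use did not pass the test either. EGFR had log2 signals of 7.61, 6.34 and 7.57 in CET replicates 1, 2 and 3, against 7.86, 7.38 and 8.70 in VEH replicates 4, 5 and 6, and its log2 difference was -0.81 with a standard error of 0.71. All 3 CET arrays lay below the VEH mean, but the groups overlapped. ERBB2, the partner receptor with no ligand of its own, had -0.31 with a standard error of 0.64, which was 0.26 without CET replicate 3. ERBB3, which relays to PI3 kinase, had 1.14 with a standard error of 0.64 at its brightest probe set, but its 3 other probe sets had the opposite sign. ERBB4 was not analysed here.

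Of the neuregulins, which are ligands of ERBB3 and ERBB4, 3 of 4 had a higher mean after CET at the brightest probe set. NRG1 had log2 signals of 8.10, 9.18 and 9.18 in CET replicates 1, 2 and 3, against 8.01, 7.56 and 7.96 in VEH replicates 4, 5 and 6. Every CET array was above every VEH array, CET replicate 1 only slightly, and the log2 difference was 0.98 with a standard error of 0.58 (limma adjusted p = 0.83). NRG2 had 0.94 with a standard error of 0.75, with CET replicate 2 the lowest of the 6 arrays. NRG3 and NRG4 were dim, at 0.70 and -0.76, and the other NRG3 probe set, also dim, was at -2.87 with an unadjusted limma p of 0.0058. Other dim probe sets also ran opposite to the brightest, at -1.69 for NRG1 and -0.47 for NRG2. None of them passed the adjusted or the unadjusted limit at its brightest probe set, although NRG1 without CET replicate 1 and NRG2 without CET replicate 2 had an unadjusted p under 0.05.

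Ligand release was described by 9 genes of the proteases and regulators that shed the precursors, of which 5 had a higher and 4 a lower mean after CET, with a median log2 difference of 0.11. The median was -0.20 without CET replicate 1, -0.11 without VEH replicate 6, -0.0086 without VEH replicate 5 and -0.20 with array medians subtracted, so it had no settled sign. None passed an unadjusted p of 0.05. ADAM9, a sheddase of HBEGF, had the largest difference, -1.23 with a standard error of 0.70. Most of it came from CET replicate 2, whose log2 signal of 8.32 was far below the 11.26 and 11.07 of CET replicates 1 and 3, against 10.92, 11.52 and 11.90 in VEH replicates 4, 5 and 6. Without that array it was -0.30. The rhomboid protease RHBDL2 and the inactive rhomboid RHBDF1 had 0.65 and 0.69, with standard errors of 0.45 and 0.63, and ADAM19 had -0.70 with a standard error of 0.73, which was 0.085 without CET replicate 3.

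**Figure D4:**
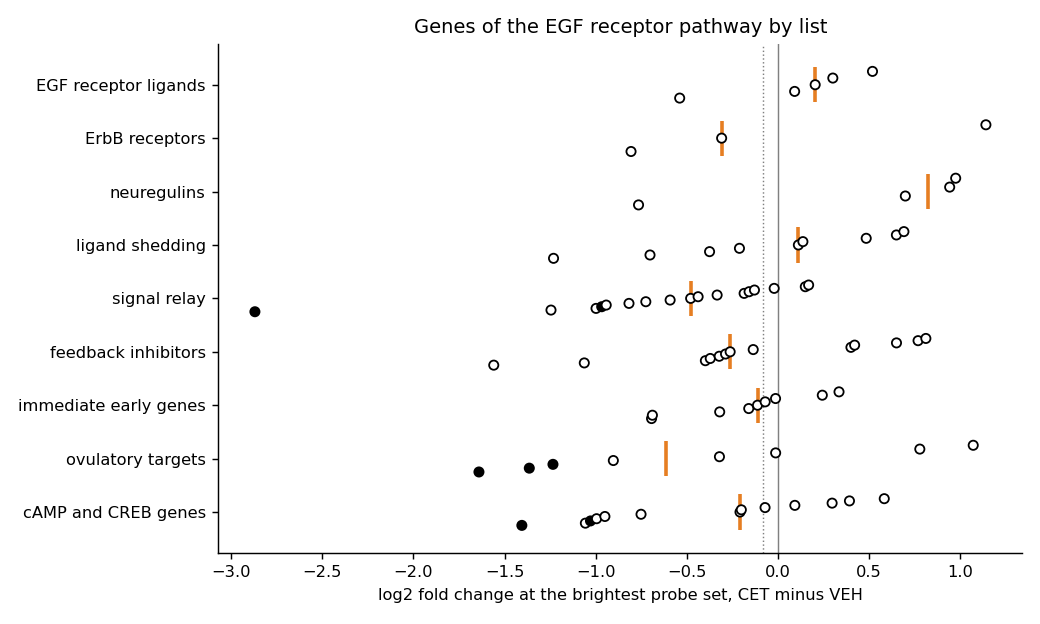
Log2 difference, CET minus VEH, at the brightest probe set of each gene, by list. Filled points passed an unadjusted limma p of 0.05 and open points did not, orange bars are list medians, the dotted line is the median of all genes at -0.08 and the solid line is 0. The signal relay has 15 of 17 points below 0, and the ligands have 4 of 5 above it, of which AREG moves below 0 with the signals as deposited.

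Downstream of the receptors, the adaptors and kinases of the signal relay had lower means after CET in 15 of 17 genes, with a median log2 difference of -0.48, against lower means in 54.6% of all genes. When 1 array was left out, the number lower ran from 12 without VEH replicate 6 to 16 without VEH replicate 4. It was 12 with the control ratio as a covariate and 17 with array medians subtracted. By unadjusted p, 0 were higher and 2 lower, where 2.02% of all genes were higher and 3.01% lower. STAT3, a transcription factor that EGFR and cytokine receptors activate, had log2 signals of 5.97, 5.49 and 5.49 in CET replicates 1, 2 and 3, against 8.54, 8.65 and 8.39 in VEH replicates 4, 5 and 6. The 2 groups were far apart, and the log2 difference of -2.87 with a standard error of 0.69 (limma adjusted p = 0.83, unadjusted p = 0.0015) varied from -3.05 to -2.75 when any 1 array was left out. The mean of STAT3 over all 6 arrays, 7.09, was below the dim limit, since its signal after CET was dim.

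PTPN11, the SHP2 phosphatase that carries receptor signals to RAS, had log2 signals of 11.26, 10.28 and 11.30 in CET replicates 1, 2 and 3, against 11.57, 12.10 and 12.07 in VEH replicates 4, 5 and 6. No CET array of PTPN11 reached the lowest VEH array, and the log2 difference was -0.97 with a standard error of 0.43 (limma adjusted p = 0.83, unadjusted p = 0.045). MAP2K1, the MEK1 kinase, and AKT1 had log2 differences of -1.0 and -1.25, with standard errors of 0.51 and 0.71, and AKT1 was -0.38 without CET replicate 3. A second AKT1 probe set of like brightness had a log2 difference of -0.059 with a standard error of 0.43, and a second PTPN11 probe set above the dim limit had -0.11 with a standard error of 0.85. Without CET replicate 2 or any 1 VEH array, STAT3 alone had an unadjusted p under 0.05. Each CET array had a lower mean Spearman rho over probe sets with the other CET arrays than with the VEH arrays, at 0.664 against 0.756 for CET replicate 1, 0.710 against 0.727 for CET replicate 2 and 0.709 against 0.733 for CET replicate 3. Without CET replicate 1, the share of all probe sets with an unadjusted p under 0.05 in either direction was 13.3%. At their brightest probe sets, 6 of the 17 relay genes were lower at that limit. That count is of genes in the lower direction alone, so it is not a like measure to the share. ADAM9, SOCS5, SPRY4 and KLF4 were also lower and CD44 higher, with none past the adjusted p.

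Inhibitors of EGFR signaling were divided, with 5 higher and 8 lower means among 13 genes and a median log2 difference of -0.26. The median was 0.14 without CET replicate 2, 0.012 without VEH replicate 5 and 0.16 with the control ratio as a covariate. None passed an unadjusted p of 0.05. SPRY4, a Sprouty inhibitor of RAS signaling, had log2 signals of 9.63, 9.25 and 7.96 in CET replicates 1, 2 and 3, against 9.99, 10.10 and 9.94 in VEH replicates 4, 5 and 6. All CET arrays were lower, CET replicate 3 by far the most, and the log2 difference was -1.06 with a standard error of 0.53. SOCS5, a suppressor of cytokine and EGFR signals, had -1.56 with a standard error of 0.73, which was -0.68 without CET replicate 2. CBL, the ubiquitin ligase that sends EGFR to lysosomes, had 0.77 with a standard error of 0.60, and LRIG3, of a family that restrains ErbB receptors, was dim at 0.81 with a standard error of 0.91 and at -0.17 without VEH replicate 4.

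Immediate early genes, the first transcripts that MAP kinase signaling raises, had no settled direction, with 2 of 9 higher, 7 lower and a median log2 difference of -0.11. None passed an unadjusted p of 0.05. The median was -0.65 without CET replicate 1, with 8 of 9 lower, 0.23 without CET replicate 2 and 0.11 without CET replicate 3, with 6 of 9 higher in both, and 0.048 without VEH replicate 4. ATF3 and KLF4 had -0.69 each, with standard errors of 0.54 and 0.58. FOSL2 had -0.32 with a standard error of 0.61, which was 0.39 without CET replicate 3 and 0.09 without VEH replicate 4. KLF6 had 0.34 with a standard error of 0.43, and -7.2e-04 with array medians subtracted. Of 4 other KLF6 probe sets above the dim limit, 2 had the opposite sign, at -0.64 and -0.14. The rest of these were at 0.79 and 1.16.

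Genes that EGFR ligands induce in the cumulus and granulosa cells at ovulation had lower means after CET in 6 of 8 cases, with a median log2 difference of -0.61. By unadjusted p, 3 of the 8 were lower, against 3.01% of all genes, and none passed the adjusted p. TNFAIP6, which links hyaluronan chains, had log2 signals of 10.15, 8.30 and 9.32 in CET replicates 1, 2 and 3, against 10.52, 10.43 and 10.91 in VEH replicates 4, 5 and 6. All CET arrays were lower, and the log2 difference was -1.36 with a standard error of 0.53 (limma unadjusted p = 0.024). PTX3, a pentraxin of the same matrix, had log2 signals of 6.99, 6.80 and 7.30 in CET replicates 1, 2 and 3, against 7.36, 9.22 and 9.43 in VEH replicates 4, 5 and 6. Its CET values were dim and VEH replicate 4 was close to them, and the log2 difference was -1.64 with a standard error of 0.71 (limma unadjusted p = 0.041).

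ADAMTS1, a protease that cuts versican, had deposited signals of 2336, 924 and 906 in CET replicates 1, 2 and 3, against 1861, 4935 and 3218 in VEH replicates 4, 5 and 6, and a log2 difference of -1.23 with a standard error of 0.51 (limma unadjusted p = 0.034). CET replicate 1 was above VEH replicate 4, so these groups overlapped. CD44, the hyaluronan receptor, ran the other way in this list, with log2 signals of 9.42, 9.99 and 10.24 in CET replicates 1, 2 and 3, against 8.19, 9.26 and 8.97 in VEH replicates 4, 5 and 6. All CET arrays of CD44 were higher, with a log2 difference of 1.07 and a standard error of 0.50 (limma unadjusted p = 0.056). The count of 3 lower genes was 0 without CET replicate 2 or VEH replicate 6, 1 without CET replicate 3 or VEH replicate 5, and 2 without CET replicate 1 or VEH replicate 4. It was also 0 with the methods' t-test or the control ratio as a covariate, and 1 without the intensity trend or with a floor at the 20th percentile.

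Genes of the cyclic AMP and CREB route, by which LH induces AREG in the follicle, had lower means in 9 of 13 cases, against 54.6% of all genes. Their median log2 difference was -0.21. Beside genes that answer cyclic AMP, the list held CREB1, ATF1, CRTC2 and CREBBP, which carry the signal, at -0.07, 0.09, -1.06 and -0.75. By unadjusted p, 2 were lower, against 3.01% of all genes. The median was -0.71 without CET replicate 1, -0.57 without VEH replicate 4 and -0.60 without VEH replicate 6, and -0.11 without VEH replicate 5. CREM, a cyclic AMP-responsive factor, had log2 signals of 9.59, 8.19 and 8.61 in CET replicates 1, 2 and 3, against 9.31, 11.19 and 10.11 in VEH replicates 4, 5 and 6, a log2 difference of -1.41 with a standard error of 0.59. CET replicate 1 was above VEH replicate 4, and 1 of the other CREM probe sets above the dim limit had the opposite sign. RGS2, a regulator of G protein signaling, had log2 signals of 12.70, 11.54 and 11.31 in CET replicates 1, 2 and 3, against 13.24, 12.68 and 12.72 in VEH replicates 4, 5 and 6. CET replicate 1 stood level with VEH replicates 5 and 6, and the log2 difference was -1.03 with a standard error of 0.45.

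NR4A2, an orphan nuclear receptor, had log2 signals of 10.01, 9.08 and 9.21 in CET replicates 1, 2 and 3, against 10.29, 10.39 and 10.46 in VEH replicates 4, 5 and 6. All CET arrays were lower, and the log2 difference was -0.95 with a standard error of 0.45 (limma unadjusted p = 0.057). INHA, the inhibin alpha subunit, was among the brightest probe sets and had -0.99 with a standard error of 0.58. The count of 2 lower genes in this list was 6 without CET replicate 1, with CRTC2 and CREBBP among the 6. Without that array, 13.3% of all probe sets had an unadjusted p under 0.05 in either direction, against 5.38% with all arrays. That share is not a like measure to a count of lower genes. The count was 1 without VEH replicate 4, and 0 without CET replicate 2, CET replicate 3, VEH replicate 5, VEH replicate 6 or the intensity trend. It was also 1 with the methods' t-test or the control ratio as a covariate.

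The labelled luteal tissue was checked against markers. All 8 steroidogenic markers with a probe set were above the dim limit, with 7 of 8 lower and a median log2 difference of -1.09. Sums of signal are given here from the quantile-normalized values, put back on the linear scale. The steroidogenic sum was 42116 to 104907 on CET arrays, against 95324 to 127340 on VEH arrays. In tissue RNA, fewer cells of a type and less RNA per cell cannot be told apart. The median was -0.28 for 10 endothelial markers, -0.34 for 5 pericyte and smooth muscle markers, -0.14 for 9 macrophage markers and -0.13 for 3 lymphocyte markers. The lymphocyte sum was 4221 to 4994 on CET arrays, against 6673 to 8250 on VEH arrays. The mean log2 signal of these lymphocyte markers, relative to the VEH mean, overlapped between the groups. It was -0.46, -0.03 and -0.30 in CET replicates 1, 2 and 3, against 0.84, -0.53 and -0.31 in VEH replicates 4, 5 and 6. Of 6 neutrophil markers 5 were higher, with a median of 0.46 and a sum of 1836 to 3058 on CET arrays, against 1543 to 1699 on VEH arrays. Relative to the VEH mean, those above the dim limit averaged -0.17, 0.96 and 0.09 in CET replicates 1, 2 and 3. In VEH replicates 4, 5 and 6 they averaged 0.10, -0.04 and -0.06, so the groups overlapped. The median was 0.49 for 5 platelet and red cell markers, but -0.015 for those above the dim limit. Relative to the VEH mean, the latter averaged -0.33, 1.24 and -0.16 in CET replicates 1, 2 and 3. Dim markers were PPBP and ITGA2B in this list, S100A9 and S100A12 among the neutrophil markers, and KDR and FLT1 among the endothelial markers. Of 7 epithelial markers 6 were lower, with a median of -0.46 and a sum of 611 to 1173 on CET arrays, against 1469 to 2043 on VEH arrays, and KRT7, KRT19, EPCAM and CDH1 among them were dim. The epithelial markers above the dim limit averaged -0.26, -1.87 and -1.31 in CET replicates 1, 2 and 3. In VEH replicates 4, 5 and 6 they averaged 0.24, 0.06 and -0.29, so CET replicate 1 was slightly above VEH replicate 6. The part of cell composition in the ligand values was not tested.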

How the data were processed

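RNA of 3 CET and 3 VEH samples was measured on 1 Affymetrix rhesus array each. The authors deposited signal intensity values of probe sets, made with MAS5 on a linear scale, and the mean without the outer 2% of signals was 500 on every array. The version of MAS5 was not given in the sources used here. Signals were floored at 1, put on the log2 scale and quantile-normalized after 158 control probe sets had been set aside. The groups were compared with limma 3.58.1 (R 4.3.3), using the intensity trend but no covariate, over 52707 probe sets, with a threshold of 0.05 after Benjamini-Hochberg adjustment. Of these, 24956 had a single symbol in the platform annotation, 361 several and 27390 none. Each gene was represented by its brightest probe set over the 6 arrays. The test was checked on simulated data with independent noise, a setting without differences in RNA quality between arrays. Precision is limited by having only 3 arrays a group.

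The ligands and all gene lists were chosen with earlier results of these data known. Named genes were all ligands, ErbB receptors and neuregulins with a probe set, up to 4 members of each other list with the smallest p, STAR, RPL19, and the 5 genes most like AREG. Alternatives were unscaled use of the deposited signals, subtraction of array medians, 16 added to each signal, flooring at the 20th percentile, removal of dim probe sets, limma with no trend, array weights, the methods' t-test, omission of each array, the mean over probe sets and the 3' to 5' ratio of controls as a covariate. Omission of CET replicate 2 and VEH replicate 4 together and the differences within arrays were added after seeing the data. Some list members are not analysed here.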

Additional observations from a re-analysis of the deposited data

Results flagged for a closer look

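CET replicate 2 was flagged by control probe sets, which lie outside the probe sets tested and entered the comparison only as a covariate in one alternative. Its 3' signal was 142.9 times the 5' signal for GAPDH, against 1.79 to 7.31 times on the VEH arrays, 37.2 times for ACTB, against 2.12 to 22.4 times, and 42.2 times for EF1A, against 0.929 to 9.56 times. AREG had its lowest signal on this array. Among the ligands named in the report, the log2 difference moved most without it at the dimmer HBEGF probe set, to 1.94.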

How the results depend on the processing

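Of the 46 log2 differences followed through the alternatives, 31 kept their sign in each one that gave a value, among them 4 of the 8 ligand probe sets, the brighter HBEGF, both TGFA and the EGF probe set. The number of ligand probe sets past the adjusted p was 0 in every alternative. At the unadjusted p it was 0 in all but 1, where leaving out CET replicate 2 and VEH replicate 4 together, which was chosen after seeing the data, gave 1. With signals as deposited the difference was -0.27 for AREG, -0.12 for CD9 and 0.025 for POLK. With array medians subtracted it was -0.47 for AREG, -0.32 for CD9, -0.16 for FGF12 and -7.2e-04 for KLF6. With array weights it was -0.043 for AREG, -0.081 for CD9, -0.13 for TOM1, -0.030 for DGUOK and -0.14 for FGF12. With the control ratio as a covariate it was 0.62 for POLK. Without CET replicate 2 and VEH replicate 4 it was -0.22 for BTC, 0.29 for POLK and 0.021 for RPL19, and as the mean over probe sets it was -0.11 for BTC. Leaving out 1 array at a time, or those 2 together, gave -0.10 to 0.43 for AREG, -0.26 to 0.72 for BTC, -1.49 to 0.79 for the dimmer BTC and -0.33 to 3.03 for the dimmer HBEGF probe set. It gave -0.83 to 0.26 for ERBB2, -1.32 to 0.085 for ADAM19, -0.70 to 0.39 for FOSL2, -0.17 to 1.30 for LRIG3, -0.71 to 0.027 for RPL19, -0.12 to 0.52 for CD9, -0.30 to 1.09 for TOM1, -0.20 to 0.70 for DGUOK, -0.30 to 0.70 for FGF12 and -0.42 to 0.65 for POLK. The causes were not tested. EGF was at the floor on all 6 arrays with a floor at the 20th percentile and has no value there, and dim probe sets have none where they are left out. EREG has no value under any setting. No paired analysis was possible because the labels give the CET and VEH samples no shared replicate numbers. Signal over background limits the dim probe sets, whose standard errors were 0.82 to 1.30 among the ligands, against 0.43 to 0.61 for the others.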
